A study of Homo sapiens with 6 samples.

Results

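Cells obtain serine from the blood or make it from the glycolytic intermediate 3-phosphoglycerate, and they take single carbon units from serine by way of folate. The 9 genes described here encode the enzymes of both steps: PHGDH, PSAT1 and PSPH of serine synthesis, SHMT1 and MTHFD1 of the cytosolic folate pathway, and SHMT2, MTHFD1L, MTHFD2 and ALDH1L2 of the mitochondrial one. They were taken by name from the 58302 genes in the deposited tables, with earlier results of these data known, and all 9 were found. The tables come from HCCLM3, an established human hepatocellular carcinoma cell line, transfected with an antisense oligonucleotide (ASO) against the small Cajal body RNA SCARNA13 or with a Control ASO. Each group holds 3 libraries, numbered replicate 1 to 3 in the titles, and the series was designed to look for genes downstream of SCARNA13. All 6 libraries come from 1 cell line. The ASO dose and the time after transfection are not stated in the sources used, and no label says that replicates were separate cultures. The p-values therefore speak only of the spread among these libraries, which can be technical.

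PHGDH oxidises 3-phosphoglycerate, PSAT1 transfers an amino group to the product, and PSPH removes the phosphate to leave serine. The serine hydroxymethyltransferases SHMT1 (cytosol) and SHMT2 (mitochondria) split serine into glycine and a carbon unit bound to tetrahydrofolate. In mitochondria MTHFD2 oxidises that unit, and MTHFD1L releases it as formate, while ALDH1L2 can oxidise it to carbon dioxide. In the cytosol MTHFD1 takes up formate again, and the carbon units serve purine, thymidylate and methionine synthesis. Several of these genes are known targets of ATF4, the transcription factor of the amino acid response, and MTHFD2 and SHMT2 are often high in tumours.

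Values are FPKM, fragments scaled to gene length and library size, and whole reads could be recovered from them (20457474 to 25173559 per library). SCARNA13 itself had 13 reads over the controls and 7 over the treated libraries, too few to check the knockdown. Of 11 liver markers, KRT8, KRT18 and SERPINA1 reached a mean of 1 FPKM, and ALB and APOB were at 0 in all 6 libraries. The summed level of the 11 ran from 1792 to 4547 FPKM in controls and from 1647 to 3372 in SCARNA13 ASO libraries, nearly all of it from the epithelial keratins KRT8 and KRT18, while SERPINA1 was at 1.37 to 3.19 FPKM. Of the 6 fibroblast markers only ACTA2 reached a mean of 1 FPKM (summed list 5.71 to 9.76 in controls, 5.37 to 7.72 in treated libraries). PDGFRB was above 1 FPKM only in Control ASO and SCARNA13 ASO replicate 3 (1.04 and 1.31). None of 4 endothelial and 4 blood markers reached 1 FPKM (highest sums 0.106 and 0.555 FPKM), with KDR and CD3E at 0. Both replicate 3 libraries stood apart, with correlations of 0.900 to 0.939 across genes to libraries of other numbers against 0.980 to 0.994 among the rest. That separation followed the GC content of the transcripts. On deposited FPKM the 2 most abundant enzymes described here were far higher in replicate 3, and MTHFD2 and PSPH were lower there. The results of the 2 most abundant are therefore given with and without replicate 3.

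A gene is said to have risen or fallen below where its adjusted p was under 0.05 in limma-trend on log2(FPKM + 0.5) after a GC correction, with the replicate number as a block. That fit is an alternative to limma-trend with group as the only term, which called 0.0% of 10120 genes (0 genes, with 173 at an unadjusted p under 0.05). With GC correction and block, 5.21% of 10104 genes passed, 3.06% higher and 2.15% lower in the SCARNA13 ASO libraries. Limma-voom on the recovered reads with the same block called 1330 genes.

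Of the 9 enzymes, 7 reached the mean of 1 FPKM needed for testing, and PSAT1 and ALDH1L2 did not. With GC correction and block 1 rose (PHGDH), 0 fell and 6 did not pass, and the comparison with group alone called 0 of the 7. Their median log2 fold change was 0.11 (range 0.028 to 0.44), against 0.00026 over all genes tested. On deposited FPKM the control and SCARNA13 ASO groups overlapped for all 9 enzymes, and 8.44% of all tested genes had groups that did not overlap. These are bulk libraries, in which fewer cells with a transcript and less transcript per cell cannot be told apart.

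**Figure D1:**
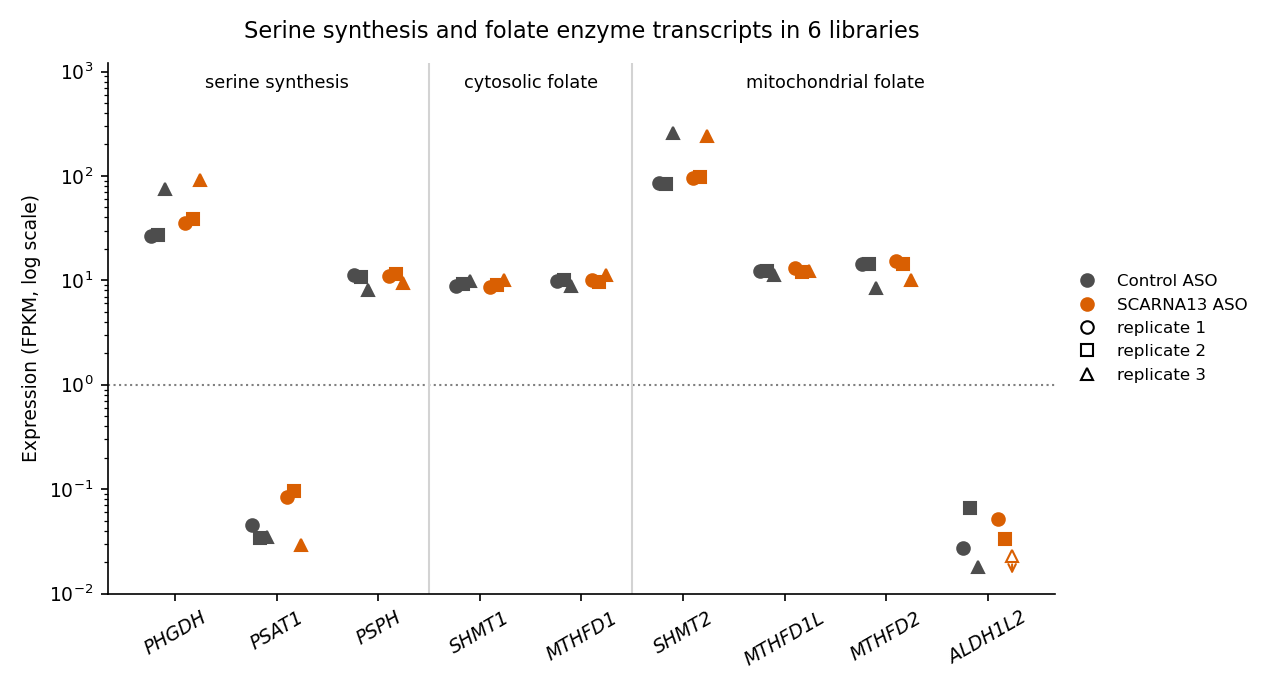
FPKM on a log scale for the 9 enzymes in each library (grey, Control ASO; orange, SCARNA13 ASO; marker shape, replicate number; dotted line, the filter of 1 FPKM). SHMT2 and PHGDH lie highest, with both replicate 3 libraries above the others, and PSAT1 and ALDH1L2 lie below 0.1 FPKM; the open marker is the level that 3 reads would give in the library where ALDH1L2 had 0.

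PHGDH (ENSG00000092621, GRCh38 chromosome 1, 119648411 to 119744226, plus strand) catalyses the first committed step of serine synthesis. It stood at 26.7, 26.9 and 74.3 FPKM in Control ASO replicates 1 to 3 and at 35.6, 38.5 and 90.9 FPKM in the SCARNA13 ASO replicates. Replicate 3 was high in both groups, so the groups overlapped, while the treated library was the higher one in 3 of 3 replicate numbers, by 1.33-, 1.43- and 1.22-fold. Group means were 42.6 ± 27.4 FPKM under Control ASO and 55.0 ± 31.1 FPKM under SCARNA13 ASO (SD, n = 3). The gene had 6599 to 13025 reads per library, so counting error is small beside the spread between replicates.

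Without a block, the PHGDH log2 fold change was 0.40 ± 0.56 (SE; limma adjusted p = 1.00), with a 95% interval of 0.517- to 3.38-fold. With GC correction and block it rose by 0.44 ± 0.056, or 1.36-fold (95% interval 1.23 to 1.5; limma adjusted p = 0.0365). The differences within replicates 1, 2 and 3 were then 0.43, 0.54 and 0.36. The block alone, without GC correction, gave 0.40 ± 0.075 and did not pass (limma adjusted p = 0.0842). Limma-voom on recovered reads with the block gave 0.43 ± 0.075 (adjusted p = 0.00569), a fit in which 6.63% of genes were called higher.

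The PHGDH call depended on which libraries entered. Without both replicate 3 libraries and with no block or GC correction, the log2 fold change was 0.46 ± 0.054 (limma adjusted p = 0.0238), where 4.52% of genes were called higher. Leaving replicate 3 out of the GC-corrected block fit gave 0.48 (limma adjusted p = 0.0303). Leaving out replicate 1 or replicate 2 there ended the call at log2 values of 0.45 and 0.39 (limma adjusted p = 0.117 and 0.140), and all genes called then numbered 14 and 0. In the fit with no block, leaving out only SCARNA13 ASO replicate 3 turned the value to -0.026, and leaving out only Control ASO replicate 3 raised it to 0.89. Whether the change of PHGDH differed from that of the other enzymes was not tested.

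PSAT1 (ENSG00000135069, chromosome 9, 78297143 to 78330093, plus strand), the aminotransferase between PHGDH and PSPH, was almost without reads. Its levels were 0.0451, 0.0343 and 0.0349 FPKM under Control ASO and 0.0842, 0.0962 and 0.0294 FPKM under SCARNA13 ASO. These rest on 3, 2 and 1 reads against 5, 6 and 1. The pooled 6 and 12 reads give a ratio of 1.97 scaled to the library sizes implied by FPKM. The exact 95% interval on these counts, 0.684 to 6.40, leaves no difference detectable at this depth. All 4 listed PSAT1 pseudogenes (PSAT1P1 to PSAT1P4) had 0 reads in every library.

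PSPH (ENSG00000146733, chromosome 7, 56011051 to 56051604, minus strand), the phosphatase of the last step, was expressed throughout. Controls had 11.2, 10.8 and 8.10 FPKM and SCARNA13 ASO libraries 10.96, 11.5 and 9.499 FPKM, with replicate 3 the lowest in each group. Means were 10.05 ± 1.70 and 10.6 ± 1.03 FPKM (SD, n = 3), and with GC correction and block the log2 fold change was 0.11 ± 0.068 (limma adjusted p = 0.321; 95% interval 0.957- to 1.22-fold). Its pseudogene PSPHP1 was listed at 2.93 to 11.3 FPKM over a length of only 261 bases. PSPHP1 held 290 reads in all against 4165 for PSPH, and the counting of reads shared by such copies is not stated.

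The 250 bases before the RefSeq transcript start were searched on both strands for TGATGNAA, a core of the amino acid response element that ATF4 binds with C/EBP partners, and for CCAAT, the box bound by NF-Y. RefSeq windows (GRCh38.p14) were matched for 6 of the 9 enzymes, leaving PSPH, SHMT2 and ALDH1L2 without one. Of 35116 such windows of all genes, 3.14% held TGATGNAA and 32.0% held CCAAT. The window of PSAT1, with almost no reads, and the first window of MTHFD1L, which was expressed, are shown whole, since neither contains an annotated exon base. A further MTHFD1L window without exon bases (chr6:151006758-151007007) held no CCAAT and is not shown. For PHGDH, the gene that rose, and for the MTHFD1L response element, only 30 bases are shown, because these lie in annotated exons. Capitals mark CCAAT or its complement and, in the last line, TGATGCAA.
PSAT1, chr9:78296875-78297124, plus strand: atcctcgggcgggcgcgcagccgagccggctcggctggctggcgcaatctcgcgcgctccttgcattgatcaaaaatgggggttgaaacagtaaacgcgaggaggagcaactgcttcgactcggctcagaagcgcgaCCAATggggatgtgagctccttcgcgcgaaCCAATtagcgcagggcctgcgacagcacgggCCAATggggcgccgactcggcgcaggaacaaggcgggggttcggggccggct
MTHFD1L, chr6:150866083-150866332, plus strand: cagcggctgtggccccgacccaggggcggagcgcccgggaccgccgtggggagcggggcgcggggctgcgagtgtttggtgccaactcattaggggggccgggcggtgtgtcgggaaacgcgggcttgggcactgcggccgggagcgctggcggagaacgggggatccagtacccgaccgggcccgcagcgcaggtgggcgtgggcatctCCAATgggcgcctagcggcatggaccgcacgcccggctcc
PHGDH, chr1:119711851-119711880, plus strand: gagtatttccgtCCAATcaaaaggagactg
MTHFD1L element, chr6:150866346-150866375, plus strand: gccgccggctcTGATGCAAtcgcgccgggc

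CCAAT occurred in 8 of the 9 windows and in all 6 enzymes with one, though the first 3 MTHFD1L windows overlap and share theirs. The PSAT1 window held 3 CCAAT boxes (113, 83 and 52 bases before the start) and a GC content of 65.6%, and the PHGDH window held 1 (71 bases before). TGATGNAA occurred only in 2 of the 4 MTHFD1L windows, 90 and 129 bases before their starts, both times at the position shown in the last line. None of the windows of PHGDH, PSAT1, SHMT1, MTHFD1 and MTHFD2 held these letters, which says nothing of sites outside 250 bases or of other spellings. The E-box CACGTG and TGACNNNGC, an antioxidant response element, were searched too. CACGTG occurred in 3 of the 9 windows, 1 of MTHFD1 and 2 overlapping ones of MTHFD1L, against 6.34% of all windows. TGACNNNGC occurred in 0 of 9, against 10.9% of all windows. A match describes the sequence only, as no binding was measured.

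The cytosolic enzymes stayed near 10 FPKM in all libraries on the deposited scaling. Scaled to recovered read totals (CPM), both were lower in replicate 3. SHMT1 then had 77.7, 82.1 and 45.2 in controls and 77.2, 79.6 and 56.2 after SCARNA13 ASO. MTHFD1 had 112, 116 and 52.8 against 118, 111 and 80.2. SHMT1 (ENSG00000176974, chromosome 17, 18327860 to 18363563, minus strand) was at 8.84, 9.26 and 9.80 FPKM under Control ASO and at 8.58, 8.94 and 10.2 FPKM under SCARNA13 ASO, which is 9.30 ± 0.483 and 9.23 ± 0.824 FPKM (SD, n = 3). Its log2 fold change was 0.028 ± 0.062 with GC correction and block (limma adjusted p = 0.781; 95% interval 0.913- to 1.14-fold) and -0.013 ± 0.17 without, so its direction depended on the setting. SMCR8, on the opposite strand, overlaps SHMT1 and had 10862 reads against 9390, and strand-specific counting is not stated.

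MTHFD1 (ENSG00000100714, chromosome 14, 64388031 to 64463457, plus strand) carries 3 activities that interconvert formate and the other cytosolic carbon units. It was at 9.86, 10.2 and 8.90 FPKM under Control ASO and at 10.2, 9.72 and 11.2 FPKM under SCARNA13 ASO. The treated values were higher in replicates 1 and 3 and lower in replicate 2. Means were 9.64 ± 0.658 and 10.4 ± 0.784 FPKM (SD, n = 3), with a log2 fold change of 0.11 ± 0.079 in the GC-corrected block fit (limma adjusted p = 0.400; 95% interval 0.936- to 1.24-fold). Neither cytosolic enzyme passed, and the interval of each includes no change.

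SHMT2 (ENSG00000182199, chromosome 12, 57229327 to 57234935, plus strand), the mitochondrial serine hydroxymethyltransferase, was the most abundant of the 9. Its levels were 85.4, 84.4 and 257.8 FPKM under Control ASO and 95.1, 96.9 and 240.9 FPKM under SCARNA13 ASO. As with PHGDH, the 2 libraries numbered replicate 3 were far above the other 4 on deposited FPKM. On that scale the treated library was 1.11- and 1.15-fold higher in replicates 1 and 2 but 0.935-fold in replicate 3. Means were 142.5 ± 99.8 and 144.3 ± 83.7 FPKM (SD, n = 3). With GC correction and block the log2 fold change was 0.15 ± 0.051, and its 95% interval of 1.01- to 1.21-fold lies above 1 while the value did not pass after adjustment (limma adjusted p = 0.129). Without replicate 3 the same fit gave 0.18 ± 0.036 and did not pass either (limma adjusted p = 0.0581; 95% interval 1.06- to 1.21-fold). NDUFA4L2 overlaps SHMT2 on the other strand but had 867 reads against 83737.

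MTHFD2 (ENSG00000065911, chromosome 2, 74198562 to 74217565, plus strand) was at 14.3, 14.2 and 8.502 FPKM under Control ASO and at 15.5, 14.3 and 9.97 FPKM under SCARNA13 ASO. Here replicate 3 was the low one in each group, and the treated library was higher in 3 of 3 replicate numbers, by 1.08-, 1.01- and 1.17-fold. These differences did not pass (log2 fold change 0.091 ± 0.054 with GC correction and block, limma adjusted p = 0.30; 95% interval 0.969- to 1.17-fold). Group means were 12.4 ± 3.33 and 13.3 ± 2.90 FPKM (SD, n = 3).

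MTHFD1L (ENSG00000120254, chromosome 6, 150865549 to 151101887, plus strand), the formate-releasing synthetase, varied little with the replicate number on deposited FPKM. Controls had 12.4, 12.4 and 11.3 FPKM and treated libraries 13.2, 11.9 and 12.4 FPKM, with means of 12.02 ± 0.593 and 12.5 ± 0.649 FPKM (SD, n = 3). As CPM it was lower in replicate 3, at 36.1 (control) and 47.4 (SCARNA13 ASO), against 73.1 to 81.9 in the other libraries. The log2 fold change of 0.091 ± 0.064 with GC correction and block did not pass (limma adjusted p = 0.378; 95% interval 0.951- to 1.19-fold).

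ALDH1L2 (ENSG00000136010, chromosome 12, 105019784 to 105084577, minus strand), the mitochondrial formyltetrahydrofolate dehydrogenase, was at the limit of detection. It had 7, 15 and 2 reads in controls (0.0271, 0.0662 and 0.0180 FPKM) and 12, 8 and 0 reads in SCARNA13 ASO libraries (0.0520, 0.0330 and 0 FPKM). The count of 0 allows up to 0.0227 FPKM in that library, the level 3 reads would give. Pooled reads of 24 and 20 give a ratio of 0.821 (exact 95% interval 0.430 to 1.55), so no difference was detectable. C12orf45 overlaps it on the other strand with 2363 reads, so even these few reads cannot be assigned with certainty.

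**Figure D2:**
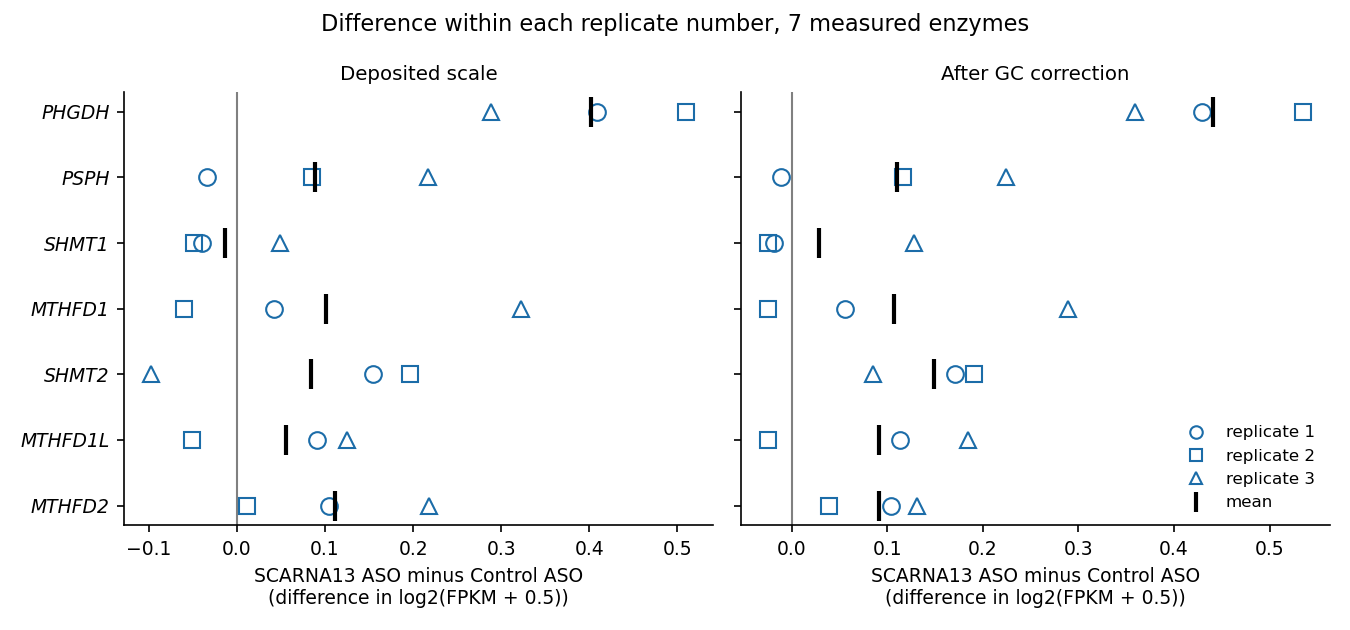
Difference between the SCARNA13 ASO and the Control ASO library of each replicate number, in log2(FPKM + 0.5), for the 7 enzymes tested, before (left) and after (right) GC correction; bars mark the mean of the 3. PHGDH differences all lie at 0.29 or above, while PSPH, SHMT1, MTHFD1 and MTHFD1L have a difference below 0 in both panels, and the replicate 3 difference of SHMT2 moves from -0.10 to 0.084.

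By mean FPKM over the 6 libraries SHMT2 ranked 383rd of all genes and PHGDH 1098th. MTHFD2 (3065th), MTHFD1L (3149th), PSPH (3508th), MTHFD1 (3588th) and SHMT1 (3785th) lay close together, and PSAT1 and ALDH1L2 ranked 20200th and 22112th. These ranks mix libraries that differ: within single libraries SHMT2 ranked 430th to 482nd in replicates 1 and 2 and 294th to 351st in replicate 3, PHGDH 1049th to 1482nd and 805th to 1123rd, and MTHFD2 2322nd to 2560th and 3893rd to 4308th. SHMT2 was first and PHGDH second in each of the 6 libraries. Among the 5 enzymes between 8.10 and 15.5 FPKM, MTHFD1L was above PSPH, MTHFD1 and SHMT1 in 6 of 6 libraries, and MTHFD2 was above PSPH in 6 of 6. The neighbours MTHFD2 and MTHFD1L (4 of 6), PSPH and MTHFD1 (4 of 6) and MTHFD1 and SHMT1 (5 of 6) changed places, each reversal being in a replicate 3 library.

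The order within that middle group also rested on the gene length used. The deposited lengths count every annotated exon of a gene, 7281 bases for SHMT1 and 9217 for PHGDH, against 2464 and 2585 bases for their main coding transcripts in GENCODE 29. Per coding transcript SHMT1 took place 3 in each library, at 25.4 to 30.01 on the FPKM scale, and MTHFD1L followed it. SHMT2 at 161 to 492 and PHGDH at 95.1 to 324 kept the first and second places.

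Cytosolic and mitochondrial enzymes were then compared within each library, where the library scaling cancels out. The SHMT2 to SHMT1 ratio of FPKM was 9.66, 9.12 and 26.3 in Control ASO replicates 1 to 3 and 11.1, 10.8 and 23.7 in the SCARNA13 ASO replicates. In every library the mitochondrial enzyme was thus the more abundant by at least 9.12-fold per listed length, or 5.88-fold per coding transcript. Whether reads of the overlapping SMCR8 entered the SHMT1 values was not tested. The mean log2 ratio differed by 0.099 between the groups (exact two-sided permutation test, p = 0.6; smallest possible 0.1). It was higher after SCARNA13 ASO in 2 of 3 replicate numbers (0.20, 0.25 and -0.15), and the exact permutation test within numbers gave p = 0.5, with 0.25 the smallest possible.

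The MTHFD2 to MTHFD1 ratio was 1.45, 1.40 and 0.956 in controls and 1.52, 1.47 and 0.886 after SCARNA13 ASO. It was above 1 in replicates 1 and 2 and below 1 in replicate 3 of each group, a split by replicate number and not by ASO. The group difference in log2 ratio was 0.010 (exact permutation test, p = 0.9). For MTHFD1L to MTHFD1 the ratio was 1.25, 1.22 and 1.27 against 1.30, 1.23 and 1.103. This pair moved little with the replicate number and differed by -0.049 on the log2 scale (exact permutation test, p = 0.7). The 3 tests form 1 family (Benjamini-Hochberg adjusted p = 0.9 for each exact test), and since 3 against 3 libraries cannot reach 0.05, they cannot show a shift between compartments.

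**Figure D3:**
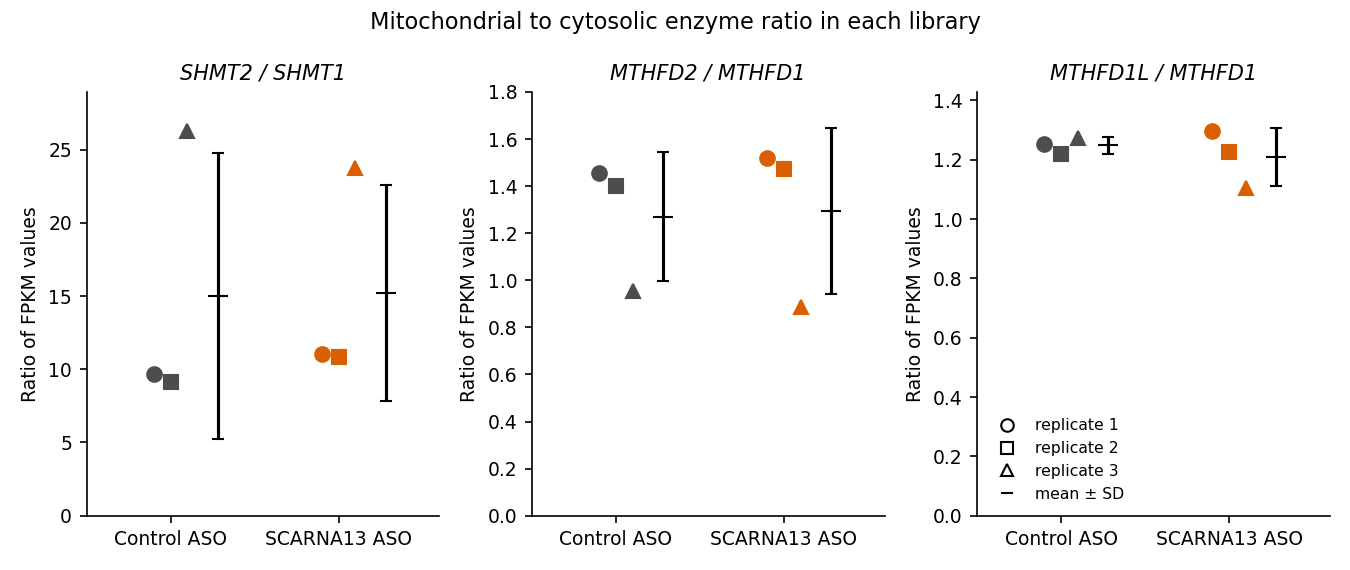
Ratio of the FPKM of a mitochondrial enzyme to that of its cytosolic counterpart in each library (marker shape, replicate number), with group mean and SD beside the points; axes start at 0. The SHMT2 to SHMT1 ratio is 23.7 or more in both replicate 3 libraries and 11.1 or less in the others, and no ratio separates the ASO groups.

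The shift of replicate 3 differed between the enzymes. Against the mean of replicates 1 and 2, replicate 3 was 2.77-fold (control) and 2.45-fold (SCARNA13 ASO) for PHGDH and 3.04- and 2.51-fold for SHMT2. MTHFD2 was at 0.596- and 0.669-fold and PSPH at 0.736- and 0.847-fold. SHMT1, MTHFD1 and MTHFD1L lay between 0.889- and 1.16-fold in both groups. These folds and the shifts below are on deposited FPKM, whose scaling differed in replicate 3. Implied library size over recovered reads was 0.633 (control) and 0.760 (SCARNA13 ASO) there, against 1.21 to 1.24 elsewhere. Scaled to recovered read totals (CPM), PHGDH had 297, 302 and 434 in controls and 405, 434 and 637 in treated libraries. SHMT2 had 499, 498 and 790 against 568, 573 and 886. For both enzymes replicate 3 thus exceeded replicates 1 and 2 by less on that scale than on FPKM. Transcript GC content was 41.4% for MTHFD2 and 57.0% for SHMT2, at the 15.3rd and 70.6th percentile of tested genes. Over all tested genes, the median shift ran from -0.94 in the lowest GC decile to 1.52 in the highest in controls, and from -0.83 to 1.21 after SCARNA13 ASO. PHGDH, at 52.3% GC, shifted by 1.46 and 1.28 where its GC decile had medians of 0.33 and 0.33. Of the 1010 genes in that decile 92.9% (control) and 95.8% (SCARNA13 ASO) shifted less than PHGDH, so some genes of similar GC content shifted as far. For SHMT2 the shares in its own decile were 85.3% and 86.9%.

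**Figure D4:**
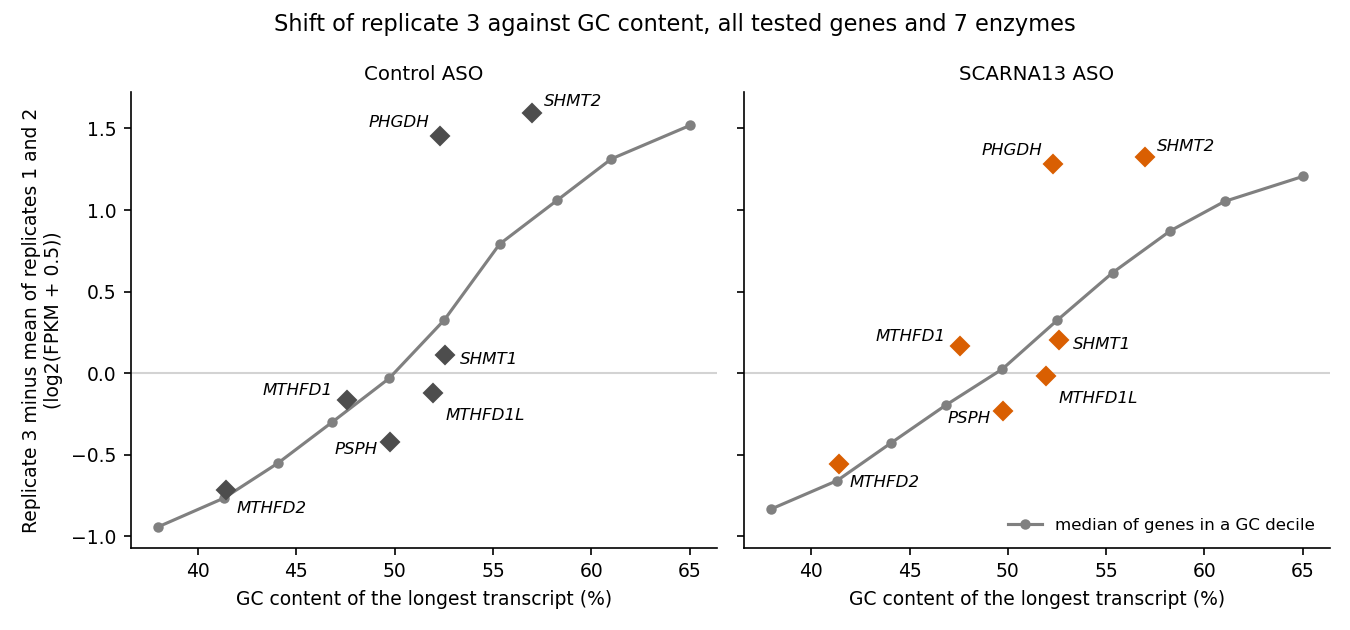
Shift of replicate 3 from the mean of replicates 1 and 2, in log2(FPKM + 0.5), against transcript GC content, for Control ASO (left) and SCARNA13 ASO (right). The grey line joins the medians of 10 groups of genes ordered by GC and rises from -0.94 to 1.52 in controls; PHGDH and SHMT2 lie above it in both groups, PSPH, SHMT1 and MTHFD1L below it, and MTHFD1 and MTHFD2 above it by less than PHGDH and SHMT2.

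The neighbouring pathway genes were described by 5 lists chosen with earlier results of these data known. Enzymes that use cytosolic and nuclear folate had 3 of 6 reported members tested, of which 0 rose and 0 fell, with a median log2 fold change of -0.15. ATIC, which carries the last steps of purine ring synthesis, was at 50.7 ± 1.97 FPKM under Control ASO and 44.7 ± 2.21 FPKM under SCARNA13 ASO (SD, n = 3). Its groups did not overlap, but its log2 fold change of -0.15 ± 0.046 did not pass (limma adjusted p = 0.10). GART, another purine enzyme (-0.13 ± 0.056), and TYMS, thymidylate synthase (-0.16 ± 0.079), did not pass either. ALDH1L1, the cytosolic counterpart of ALDH1L2 and named after its values were seen, was below the filter at 0.0264 and 0.0388 FPKM on average, so the ratio of these enzymes could not be read.

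In the list of mitochondrial folate and glycine cleavage genes, 4 of 9 were tested, 0 rose and 0 fell, with a median of -0.063. SARDH, sarcosine dehydrogenase, stood at 0.27 ± 0.083 (limma adjusted p = 0.103), and the mitochondrial folate carrier SLC25A32 at -0.087 ± 0.068. DLD, a shared dehydrogenase subunit, was at -0.098 ± 0.071, and MTFMT, which formylates initiator methionine tRNA, at -0.039 ± 0.10. Of the purine synthesis genes, 7 of 9 were tested, 0 rose and 0 fell, with a median of -0.084. IMPDH2, which directs purines to guanine nucleotides, was at 161, 155 and 269 FPKM under Control ASO and 128, 116 and 158 FPKM under SCARNA13 ASO. PPAT (-0.23 ± 0.10), PFAS (0.10 ± 0.054) and ADSS (-0.15 ± 0.11), all purine enzymes, did not pass. IMPDH2 was lower in 3 of 3 replicate numbers, at a log2 fold change of -0.46 ± 0.087, and missed the threshold (limma adjusted p = 0.0517). It passed without replicate 3 (limma adjusted p = 0.0321, GC correction and block). In limma-voom with the block, which called 659 genes lower, IMPDH2 passed too (log2 -0.48, adjusted p = 0.00729). It did not pass with the block alone (limma adjusted p = 0.0955). Without replicate 1 or 2 in the GC-corrected block fit it did not pass either (limma adjusted p = 0.117 and 0.152).

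Among genes of serine use and mitochondrial transport, 3 of 8 were tested and 1 rose, where 3.06% of all tested genes rose. In this list 0 fell, with a median of -0.023. SDSL, a serine dehydratase-like protein, was at 6.22, 5.999 and 20.96 FPKM in controls and at 8.76, 9.27 and 28.7 FPKM in treated libraries. It rose 1.48-fold (log2 0.57 ± 0.065, limma adjusted p = 0.0365). Like PHGDH it did not pass without replicate 1 or 2 (log2 0.62 and 0.58, limma adjusted p = 0.0908 and 0.125) or with the block alone (limma adjusted p = 0.0661). Also like PHGDH, it passed without replicate 3 (limma adjusted p = 0.0308, GC correction and block) and in limma-voom with the block (adjusted p = 0.00556). SFXN1, which carries serine into mitochondria, stood at -0.24 ± 0.067 and did not pass (limma adjusted p = 0.0874), and its relative SFXN3 was at -0.023 ± 0.047.

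The amino acid response list held most of the genes named here that rose. Of its 10 members 9 were tested and 4 rose, where 3.06% of all tested genes rose. In the list 0 fell, and the median was 0.36 against 0.00026 over all genes tested. Without replicate 3 the same fit called 5 of the 9 higher, where 4.2% of all genes were called higher. Without replicate 1 or 2 it called 0 of them (14 and 0 of all genes), at list medians of 0.36 and 0.39, and the block without GC correction called 0 at a median of 0.29. Limma-voom with the block, where 6.63% of all genes were called higher, called 5 of the list higher: CEBPB, DDIT3, DDIT4, SESN2 and TRIB3. ATF4, its central transcription factor, rose 1.21-fold, from 182, 174 and 215 FPKM to 217, 213 and 231 FPKM (log2 0.28 ± 0.049; limma adjusted p = 0.0483), but did not pass in limma-voom with the block (log2 0.24, adjusted p = 0.0587). DDIT3, the stress factor CHOP, rose 1.52-fold (limma adjusted p = 0.0360), TRIB3, a pseudokinase that binds ATF4, 1.51-fold (0.0365), and SESN2, a leucine-sensing regulator of growth, 1.36-fold (0.0365). ASNS, asparagine synthetase and a classic ATF4 target, was named after its values were seen. It was at 0.967, 0.919 and 1.90 FPKM in controls and 0.976, 1.12 and 0.967 FPKM in treated libraries, with a log2 value of -0.17 ± 0.21 (limma adjusted p = 0.614). Whether PHGDH moved with ATF4 for any shared reason was not tested.

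**Figure D5:**
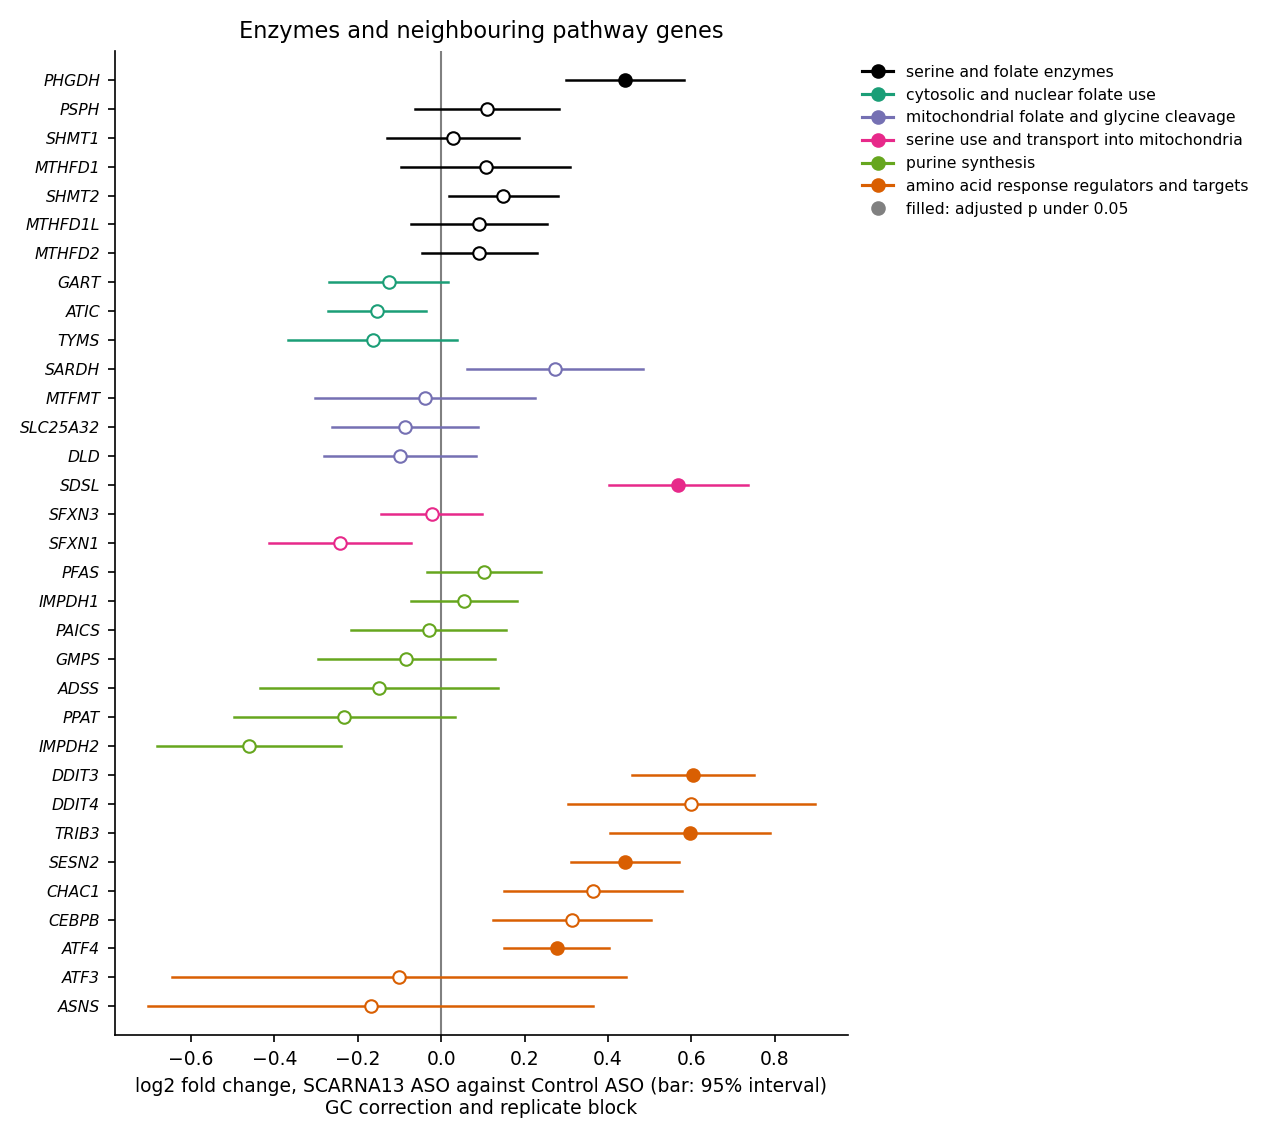
Log2 fold change of SCARNA13 ASO against Control ASO with its 95% interval for the 7 enzymes and the tested genes of 5 neighbouring lists, with GC correction and block; filled points passed an adjusted p of 0.05. PHGDH, SDSL, DDIT3, TRIB3, SESN2 and ATF4 are filled, all to the right of 0.

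Across the 6 libraries the enzymes did not share a single profile. On the log2(FPKM + 0.5) scale PHGDH correlated with SHMT2 at r = 0.97 and with MTHFD2 at r = -0.88, given as a description over 6 points of which the 2 of replicate 3 stand apart. The mean standardised level of the 7 tested enzymes correlated with its own members at 0.035 (MTHFD2) to 0.97 (MTHFD1). The genes outside the set most like that mean were CSF2RA (r = 0.98), KNOP1 (0.98), GLG1 (0.97), NPIPB5 (0.97) and LTB4R (0.97), over the same 6 libraries.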

How the data were processed

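Total RNA was made into Illumina TruSeq RNA libraries, per the labels' protocols, a kit that as generally known selects polyadenylated RNA without marking strand. Bowtie2 2.0.6, TopHat2 2.0.9 and hg19 are named in the submitters' processing notes; the counting tool and annotation are not given in the sources used. The authors deposited FPKM per gene. Positions are those of GRCh38: 97.6% of shared identifiers, and 9 of 9 enzymes, match GENCODE 29. FPKM times gene length gave whole multiples of 1 step per library (tolerance 0.01), which recovered whole reads. Every pair of libraries differed beyond sampling noise (lowest chi-square per gene 3.16).

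Fits used limma 3.58.1 in R 4.3.3 on log2(FPKM + 0.5), two-sided, with genes averaging under 1 FPKM left out and Benjamini-Hochberg adjustment over all genes tested. Fold changes on this scale understate changes of low genes. The GC correction subtracted a per-library loess trend (span 0.5) on the GC content of the longest GENCODE 29 transcript. Replicate numbers come from the titles. Deviations from group means correlated at 0.84, 0.78 and 0.91 for equal numbers, so they were taken as pairs; the crossed pairs of replicates 1 and 2 gave 0.81 and 0.81, so the values set apart only replicate 3. Exact intervals cover counting error only.

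The enzymes and lists were chosen with earlier results of these data known. Named genes are the 9 enzymes, up to 4 genes of each list with the smallest p with GC correction and block, and the 5 genes most like the enzymes' mean profile; others are marked where they appear, and 2 genes of a list are not reported here. Pseudocounts, filters, scalings, limma-voom and leaving out libraries were tried as alternatives.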

Additional observations from a re-analysis of the deposited data

How the results depend on the processing

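No gene passed in every alternative. The count of genes passing was 0 with group alone and 0 with the replicate block alone, 526 with the block and GC correction, 1330 with the block in limma-voom on recovered reads, and 0 to 922 (763 and 14 with block and GC correction without replicates 3 and 1) when libraries or replicate numbers were left out. Of the 7 tested enzymes 1 passed with the block and GC correction and 1 with the block in limma-voom, with 0 to 1 when libraries were left out; it was PHGDH each time. With the block and GC correction 0 genes passed when the filter on low values or the intensity trend was dropped, where PHGDH had an adjusted p of 0.183 and 0.0730 in limma. Leaving out libraries moved the log2 fold change of PHGDH between -0.026 and 0.89, PSPH between -0.051 and 0.17, SHMT1 between -0.080 and 0.055, MTHFD1 between -0.0088 and 0.18, SHMT2 between -0.36 and 0.62 and MTHFD2 between -0.13 and 0.30. MTHFD1L kept its direction in 25 of 25 alternatives (0.015 to 0.15). SHMT1, at -0.013 with group alone, turned in 14 of 25 alternatives, among them to 0.028 with GC correction, with or without the block and the intensity trend, to 0.080 scaled to read totals, 0.014 in limma-voom, 0.0066 there with the block, 0.0064 with block, GC correction and no filter, 0.052 and 0.055 with block and GC correction without replicates 1 and 2, and 0.035, 0.0069 and 0.024 without SCARNA13 ASO replicate 1 or 2 or Control ASO replicate 3. The SHMT2 to SHMT1 log2 ratio difference ran from -0.27 to 0.59 when libraries were left out, MTHFD2 to MTHFD1 from -0.18 to 0.26 (and -0.015 with GC correction), and MTHFD1L to MTHFD1 from -0.10 to 0.015. The ratio tests could reach no call, within replicate pairs (smallest p 0.25) or without (0.1). The cause of these changes was not tested. The fits with GC correction alone, limma-voom with block, and GC and block without filter or trend were chosen after seeing the data. Depth limits PSAT1 and ALDH1L2.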
